A study of Mus musculus with 6 samples.

Results

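The *Sprr* genes code for small proline-rich proteins. The genes described here are 8 named members of this family, namely *Sprr1a*, *Sprr1b*, *Sprr2a1*, *Sprr2a2*, *Sprr2a3*, *Sprr2b*, *Sprr2d* and *Sprr2h*, found by symbol in a table of 18049 genes. Of these, 5 had a row, and *Sprr1b*, *Sprr2d* and *Sprr2h* were not analysed here. They were chosen on the GSK503 and control values of the same 6 mice. Their differences between the groups are therefore given as a description, with no p-value. The number of them called in a fit to all genes is given without being read as a result. Only *Sprr1a*, *Sprr2a1*, *Sprr2a2* and *Sprr2a3* passed the filter on low values.

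Total RNA-Seq was performed on colonic crypts of a mouse model of Lynch syndrome, with 3 control and 3 GSK503-treated libraries. Each library was taken as 1 animal, and values of a group are listed in the order of its replicates 1, 2 and 3. All 6 mice carried a Villin-Cre transgene, which is active in intestinal epithelium, and a humanized knock-in *TgfβRII* with a run of 11 adenines. Mice were fed a Western-style diet from 8 weeks of age, and treatment lasted 9 weeks. GSK503, an inhibitor of the histone methyltransferase EZH2, was injected into the tail vein at 200 μg/kg in PBS. Control animals received 20% captisol in PBS, so as described the carrier also differed between the groups. The age at collection is not given in the sources used here.

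Small proline-rich proteins are known as building blocks of the cornified envelope, the protein shell that transglutaminases cross-link beneath the membrane of squamous epithelial cells. Their genes lie in a cluster within the epidermal differentiation complex, beside the S100 genes and the genes of loricrin, involucrin and filaggrin. In the intestine, *Sprr2a* is known from epithelial and goblet cells as a gene that microbes and type 2 cytokines induce, and its protein kills Gram-positive bacteria. *Sprr1a* is known as a gene of squamous differentiation and of the response to tissue injury, in nerve and heart among others.

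The libraries held an estimated 108162854 to 135085032 counts, and values are estimated counts scaled to the TMM-adjusted library size (written CPM), so that 3 counts, the limit a count of 0 allows, gave 0.0228 to 0.0271 CPM, for counting error only. Sex-linked genes separated the groups. *Xist*, expressed from the inactive X chromosome, was at 0.720 ± 0.269 CPM in controls against 1014 ± 207 CPM after GSK503 (SD, n = 3 each), and the Y-linked *Uty* at 47.3 ± 5.80 and 0.940 ± 0.234. All of *Xist*, *Uty*, *Ddx3y*, *Kdm5d* and *Eif2s3y* passed the test (limma adjusted p of at most 1.35e-06), so treatment and sex cannot be told apart in any comparison of these groups. In bulk crypts, a change in the number of cells that express a gene and a change in RNA per cell cannot be told apart either.

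All 5 genes lie on chromosome 3 of GRCm39 (GENCODE annotation). *Sprr2a1* (ENSMUSG00000078664) spans 92123106 to 92129218, *Sprr2a2* (ENSMUSG00000068893) 92123106 to 92164031, *Sprr2a3* (ENSMUSG00000074445) 92192724 to 92198712 and *Sprr2b* (ENSMUSG00000050092) 92223927 to 92225444, all on the plus strand. *Sprr1a* (ENSMUSG00000050359) spans 92390424 to 92393208 on the minus strand. *Sprr2a1* and *Sprr2a2* share their annotated first base, since a *Sprr2a2* transcript begins in the first exon of *Sprr2a1*. The coding sequences of the *Sprr2a* copies are shown first, as part of the transcripts whose likeness limits what the separate rows can mean. That of *Sprr2a2* (chr3:92161212-92161460, plus strand, a single coding exon) was identical to that of *Sprr2a1* (chr3:92126399-92126647) over all 249 bases, and that of *Sprr2a3* (chr3:92195895-92196143) differed from both at 3 bases. Capitals mark these 3 positions.

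Sprr2a2 and Sprr2a1: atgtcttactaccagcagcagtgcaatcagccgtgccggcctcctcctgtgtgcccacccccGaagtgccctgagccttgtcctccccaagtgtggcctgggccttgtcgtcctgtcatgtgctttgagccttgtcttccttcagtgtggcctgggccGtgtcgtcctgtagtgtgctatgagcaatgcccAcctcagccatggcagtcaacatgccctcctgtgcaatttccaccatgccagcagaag

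Sprr2a3: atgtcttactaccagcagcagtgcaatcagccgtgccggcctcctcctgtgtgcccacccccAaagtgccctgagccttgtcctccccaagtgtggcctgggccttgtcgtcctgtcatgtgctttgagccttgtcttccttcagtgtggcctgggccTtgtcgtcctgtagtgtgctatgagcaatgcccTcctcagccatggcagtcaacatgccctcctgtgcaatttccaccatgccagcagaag

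Counted from 1 at the first base of the coding sequence, with the base of *Sprr2a2* first, the differences were G63A, G159T and A192T. Each was the last base of a codon that begins with CC, and all codons that begin with CC stand for proline. Such codons made up 26 of the 83 codons in each copy (31.3%) and 46 of the 144 codons of *Sprr1a* (31.9%).

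A read covers 76 bases, so all distinct windows of that length were counted in the annotated transcripts. Only 164 of the 3058 windows of *Sprr2a1* (5.36%) and 236 of the 3055 of *Sprr2a2* (7.73%) occurred in no other *Sprr* gene, and the pair shared 2818. *Sprr2a3* had 1487 of 2807 windows to itself (53.0%), *Sprr2b* 732 of 761 (96.2%) and *Sprr1a* all 1572. Most single reads from *Sprr2a1* and *Sprr2a2* thus cannot name their gene, although the mate can where it covers bases found in that gene alone. RSEM divides such reads between genes by their estimated abundance.

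**Figure D1:**
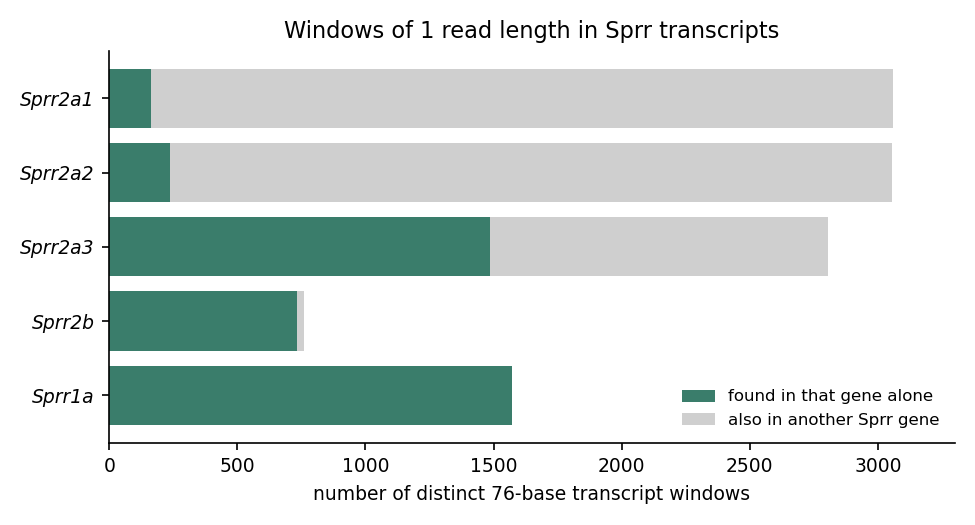
Number of distinct 76-base windows in the annotated transcripts of each *Sprr* gene with a row, split into windows found in that gene alone (green) and windows that another *Sprr* gene also holds (grey). The green part is 164 and 236 windows in *Sprr2a1* and *Sprr2a2* and all 1572 in *Sprr1a*.

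The division is visible in the values. When each value was divided by the worth of 1 count in its library, all 6 values of *Sprr1a* and all 6 of *Sprr2b* came out whole. Of the 18 values of the *Sprr2a* copies, 1 lay within 0.02 of a whole number. The sum of the 3 copies lay within 0.02 of a whole number in 6 of 6 libraries, at 321219, 221453 and 379663 counts for controls and 504007, 553585 and 470169 counts after GSK503. The summed value is therefore the main measure here, and each copy's own row is an estimate of how a shared pool was divided.

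Summed *Sprr2a* was among the most abundant transcripts of the crypts and was higher in all 3 treated mice than in all 3 control mice. Its value was 2445, 2003 and 2987 CPM in control animals against 4272, 4410 and 3912 CPM after GSK503. It held 0.205% to 0.306% of a control library and 0.378% to 0.410% of a treated one, between ranks 29 and 14 of all genes. The groups did not overlap, and the lowest treated mouse was 1.31 times the highest control mouse. The means were 2478 ± 493 and 4198 ± 257 CPM (SD, n = 3 mice each), a ratio of 1.69. The log2 fold change (log2FC), GSK503 over control on the log2(value + 0.1) scale, was 0.78 with a standard error of 0.17. Control mice spread more widely than treated mice, with a coefficient of variation of 19.9% against 6.12%.

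*Sprr2a2* carried most of this sum. Its row read 2209, 1806 and 2714 CPM in control animals against 3867, 3991 and 3570 CPM after GSK503, again without overlap. The log2FC was 0.78 (standard error 0.16), and the row held 91.1% of the difference between the summed means. *Sprr2a3* was far lower and had the largest log2FC of the rows tested, 1.25 with a standard error of 0.10. It read 108, 89.1 and 93.6 CPM in control animals against 230, 253 and 206 CPM after GSK503, so that the lowest treated mouse was 1.91 times the highest control mouse. *Sprr2a1* overlapped between the groups, with 128, 108 and 180 CPM in control animals against 175, 165 and 136 CPM after GSK503. Its log2FC was 0.22 (standard error 0.17) and ran from 0.05 to 0.43 when single animals were left out.

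*Sprr1a* was expressed at a low level with no separation of the groups. Its values were 3.76, 2.75 and 5.02 CPM in control animals against 7.13, 4.15 and 2.17 CPM after GSK503, so treated mice held both the highest and the lowest value. These rest on 261 to 841 counts. The log2FC of 0.10 (standard error 0.39) turned to -0.11 without control mouse 2, to -0.30 without GSK503-treated mouse 1 and to -0.01 when libraries were scaled by their size alone. *Sprr2b* was close to absent, with 12, 0 and 6 counts in control animals against 0, 15 and 6 after GSK503. Its highest value was 0.119 CPM, and it failed the filter on low values. Of its 76-base windows, 29 also occur in *Sprr2a1* and *Sprr2a2*.

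**Figure D2:**
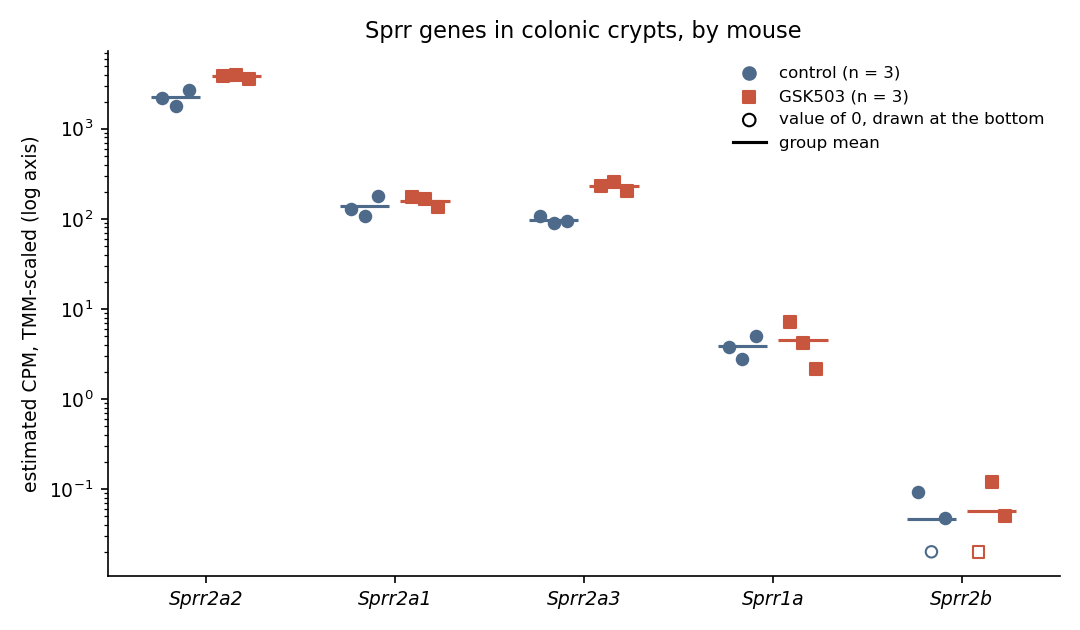
Value of each *Sprr* gene with a row in each mouse, in estimated CPM on a log axis, with control mice as blue circles, GSK503-treated mice as red squares and lines at the group means. *Sprr2a2* and *Sprr2a3* show no overlap between the groups, while *Sprr2a1*, *Sprr1a* and *Sprr2b* overlap. Open symbols at the bottom are the 2 values of 0.

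As a description, 1 of the 4 members in limma's fit to all 16670 genes tested, *Sprr2a3*, lay below the adjusted p threshold of 0.05, in which 0.498% of genes were called higher and 0.144% lower. *Sprr2a2* and *Sprr2a3* were the 2 members with every treated mouse above every control mouse, which held for 9.84% of all genes tested, and 9.22% had every treated mouse below. Nothing is read from these counts, as the members were selected on this contrast.

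Levels were compared between genes per kilobase of annotated exon, with the exons of all transcripts of a gene merged. For *Sprr2a2* this gave 3132 bases, while its single transcripts run from 718 to 3003 bases. The levels per kb therefore depend on which transcripts were expressed, which was not tested. *Sprr2a2* averaged 716 CPM per kb in control mice and 1216 in treated mice. *Sprr2a1* averaged 45.3 and 51.9 CPM per kb, *Sprr2a3* 33.6 and 79.7, *Sprr1a* 2.33 and 2.72 and *Sprr2b* 0.0552 and 0.0675. In control mice, *Sprr2a1* (35.2 to 58.8 CPM per kb) and *Sprr2a3* (30.9 to 37.3) overlapped in level. In treated mice *Sprr2a3* (71.4 to 87.9 CPM per kb) lay above *Sprr2a1* (44.5 to 57.2). All other neighbours in this order were apart in each group.

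The shares of the 2 rarer copies in the sum did not overlap between the groups. *Sprr2a3* took 4.40%, 4.45% and 3.13% of the summed value in control animals against 5.38%, 5.74% and 5.27% after GSK503. *Sprr2a1* went the other way, with 5.25%, 5.37% and 6.03% in control mice and 4.10%, 3.74% and 3.48% in treated mice. The share of *Sprr2a2* overlapped, at 90.5% ± 0.342 and 90.8% ± 0.427 (SD, n = 3 mice each). *Sprr2a3* was 0.520 to 0.839 times *Sprr2a1* in control mice and 1.31 to 1.53 times *Sprr2a1* in treated mice. These shares come from the division of shared reads described above, and how far that division follows the true origin of the reads was not tested.

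**Figure D3:**
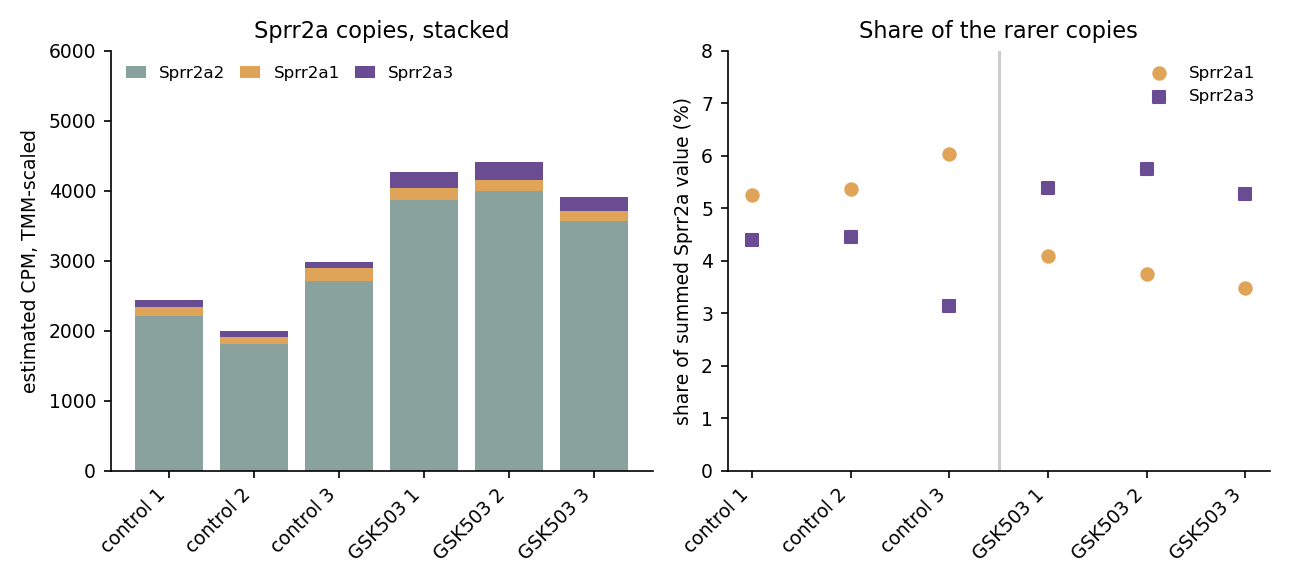
Left, the values of *Sprr2a2*, *Sprr2a1* and *Sprr2a3* stacked for each mouse, in estimated CPM. Right, the share of *Sprr2a1* (circles) and *Sprr2a3* (squares) in that sum for each mouse, in percent. *Sprr2a1* is above *Sprr2a3* in all 3 control mice and below it in all 3 treated mice.

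The proximal promoter was taken as the 250 bases before the start of the transcript that the annotation marks as canonical. For *Sprr2a2* this start is 92158039, not the first base of its annotated span, 92123106. Promoters are shown for *Sprr2a2*, which carried most of the signal, for *Sprr1a* and for *Sprr2h*, as an example of the relatives without a row. All come from GRCm39 and read 5′ to 3′ toward the start. Capitals mark matches on either strand to 5 motifs. The TATA box was searched as TATAAA, and the AP-1 site as TGANTCA. The octamer was searched as ATTTGCAT, the core of an ETS site as AGGAAG, and the STAT6 site as TTC and GAA with 4 bases between them. The motifs were picked with the promoter letters in view, and no matches overlapped in these 3 promoters.

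Sprr2a2 (chr3:92157789-92158038, plus strand): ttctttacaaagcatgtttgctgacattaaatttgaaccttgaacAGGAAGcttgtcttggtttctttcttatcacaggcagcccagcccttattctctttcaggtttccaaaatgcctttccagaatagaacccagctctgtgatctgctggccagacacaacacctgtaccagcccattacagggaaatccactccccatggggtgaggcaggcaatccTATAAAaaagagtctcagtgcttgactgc

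Sprr1a (chr3:92393209-92393458, minus strand): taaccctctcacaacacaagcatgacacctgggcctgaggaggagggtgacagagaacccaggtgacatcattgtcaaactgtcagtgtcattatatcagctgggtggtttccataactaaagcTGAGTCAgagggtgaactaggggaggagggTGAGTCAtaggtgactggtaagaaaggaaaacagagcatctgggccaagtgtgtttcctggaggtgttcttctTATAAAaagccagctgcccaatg

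Sprr2h (chr3:92292742-92292991, plus strand): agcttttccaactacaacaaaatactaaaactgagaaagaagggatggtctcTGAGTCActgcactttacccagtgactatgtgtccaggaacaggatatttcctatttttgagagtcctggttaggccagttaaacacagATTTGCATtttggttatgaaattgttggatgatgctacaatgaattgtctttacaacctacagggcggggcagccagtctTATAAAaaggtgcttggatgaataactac

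The promoter of *Sprr2a3* equalled that of *Sprr2a2* at 249 of 250 bases. The same 250 bases as in *Sprr2a2* lie at chr3:92122977-92123226 beside *Sprr2a1*, whose annotated start falls inside them. Over windows from 250 bases before to 50 bases after the start, AP-1 letters were found in 11 of 17 *Sprr* promoters and in 7.14% of the 21751 promoters of protein-coding genes. The octamer was found in 9 of 17 and in 1.63%, and the letters of the TATA box in 14 of 17 and in 13.2%. In *Sprr2j-ps* these letters lay only after the start, at 11 and 21. *Sprr2a1* was counted without them, since the TATAAA in the bases it shares with *Sprr2a2* lies beyond its window. All 9 *Sprr2* genes other than the 3 copies held both AP-1 and octamer letters, including *Sprr2b*, and the windows of *Sprr2a1*, *Sprr2a2* and *Sprr2a3* held neither. *Sprr1a* had 2 AP-1 matches and no octamer. STAT6 letters occurred in 2 *Sprr* promoters, one of them *Sprr2a1*, and in 6.80% of all, and ETS letters in 8 and in 34.4%. The STAT6 match of *Sprr2a1*, at -168 from its start, lies before the bases that its window shares with that of *Sprr2a2*. The matching stretch beside *Sprr2a2* and *Sprr2a3* was outside their windows and was not searched. A match is a stretch of letters, and binding was not measured.

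**Figure D4:**
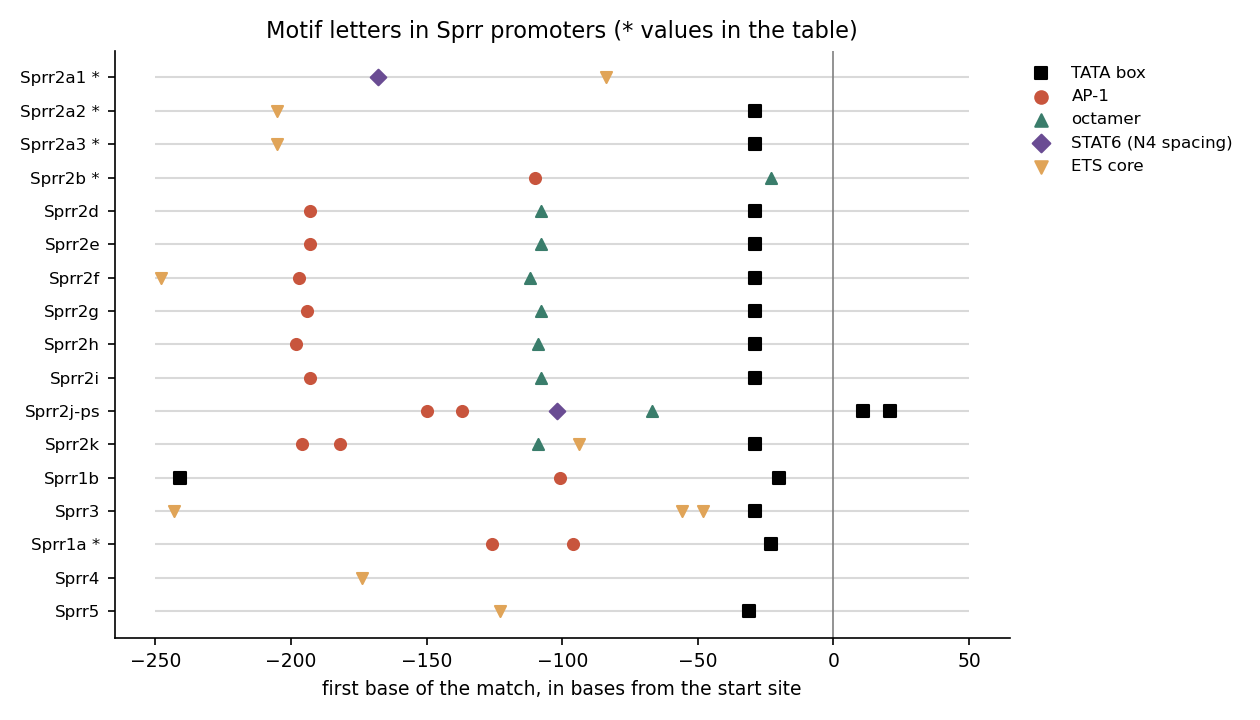
Positions of the motif matches in the 17 protein-coding *Sprr* promoters, in bases from the start of the canonical transcript. Each gene has 1 line, in chromosomal order, and a star marks genes with values here. The *Sprr2* genes below *Sprr2a3* carry AP-1 (circles) and octamer (triangles) matches, and the 3 *Sprr2a* copies carry neither.

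Squamous cells, in which the family is best known, could enter a colonic preparation from the anal margin. Of 18 stratified squamous markers, *Krt5*, *Krt1*, *Krt6a*, *Krt17* and *Krtdap* were not analysed here, 13 had a row, and 9 of those never exceeded 1 CPM. Their summed level was 6.40 to 8.11 CPM in control mice and 6.80 to 8.59 CPM in treated mice. By the mean of all 6 libraries, the highest were *Krt10*, a keratin of suprabasal epidermis, at 1.95 ± 0.596 and 1.97 ± 0.270 CPM, *Col17a1*, a hemidesmosomal collagen, at 1.68 ± 0.0734 and 1.18 ± 0.440 CPM, and *Krt14*, a basal keratin, at 0.692 ± 0.113 and 1.25 ± 0.468 CPM (SD, n = 3 mice each). The defining transcription factor *Trp63* was at 0, 0.0814 and 0.0157 CPM in control mice and 0.161, 0.0637 and 0.166 CPM in treated mice, and was picked after its values were seen. None of the 11 tested squamous markers passed in limma or in limma-voom, and none had an unadjusted p below 0.05, which 13.3% of all genes tested had.

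Colonic epithelial markers were abundant in every library. *Epcam*, an epithelial adhesion molecule, was at 1948 ± 127 CPM in controls against 1996 ± 33.4 CPM after GSK503 (SD, n = 3 each), and *Krt8*, a simple epithelial keratin, at 4928 ± 408 and 5649 ± 660 CPM. *Car1*, a carbonic anhydrase of mature colonocytes, varied most among treated mice, at 4019, 2069 and 954 CPM in mice 1, 2 and 3. Of 8 such markers, none passed in limma or in limma-voom, and 1 had an unadjusted p below 0.05, against 13.3% of all genes tested. The median log2FC was 0.04, where the median of all genes tested was -0.01.

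The partners of these proteins in the squamous envelope were looked up as lists. Of 36 other envelope precursors, 4 had a row and 3 were tested. *Tchh* (trichohyalin) was at 0.579 ± 0.210 CPM in controls against 1.26 ± 0.201 CPM after GSK503 (SD, n = 3 each), with a limma adjusted p of 0.240. *Crnn* (cornulin) stood at 0.589 ± 0.254 and 0.333 ± 0.149 CPM and *Rptn* (repetin) at 0.0825 ± 0.111 and 0.117 ± 0.0518 CPM. No precursor passed in limma or limma-voom, and 1 had an unadjusted p below 0.05, against 13.3% of all genes tested. The median log2FC was 0.39. Loricrin, involucrin and the late cornified envelope genes were not analysed here, nor were the 10 other *Sprr* family members.

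Of the transglutaminases and scaffold proteins with which small proline-rich proteins are cross-linked, some were abundant in the crypts, and 4 of 15 never exceeded 1 CPM. *Dsp*, the desmosomal plaque protein desmoplakin, was at 1227 ± 96.3 CPM in controls against 1145 ± 75.3 CPM after GSK503. *Tgm3*, a transglutaminase, spread from 231 to 407 CPM in control mice and from 277 to 717 CPM in treated mice, and *Jup*, plakoglobin, was at 223 ± 22.7 and 219 ± 17.3 CPM (SD, n = 3 each). Of 15 such genes tested, none passed in limma or in limma-voom, and 3 had an unadjusted p below 0.05, against 13.3% of all genes tested. The median log2FC was 0.24. *Tgm1*, the transglutaminase best known from epidermis, was at 0.113 ± 0.0990 and 0.149 ± 0.0984 CPM. The lowest adjusted p was 0.0691, for *Evpl*, the scaffold protein envoplakin, at 85.1 ± 5.71 and 109 ± 2.41 CPM.

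Of 10 S100 genes tested, calcium-binding neighbours of the *Sprr* cluster, none passed in limma or limma-voom. An unadjusted p below 0.05 was found for 5 of them, against 13.3% of all genes tested, and the median log2FC was 0.21. *S100a6* was at 457 ± 86.4 CPM in controls against 562 ± 41.8 CPM after GSK503, *S100a10* at 314 ± 14.5 and 373 ± 62.5 CPM, and *S100a1* at 178 ± 21.6 and 201 ± 16.1 CPM (SD, n = 3 each), and these 3, the most abundant, overlapped between the groups. Of the 10, every treated mouse lay above every control in 3, namely *S100a13*, *S100a14* and *S100a16*, and below in 2, *S100a7a* and *S100a11*, where 9.84% and 9.22% of all genes tested did so. *S100a11* was at 13.4 ± 2.27 and 9.46 ± 0.556 CPM, with a limma adjusted p of 0.194. *S100a7a* was low, at 0.167, 0.190 and 0.220 CPM in control mice against 0.0932, 0.00797 and 0.0416 CPM in treated mice. The lowest adjusted p in limma was 0.0866, for *S100a16*, with a log2FC of 0.37.

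Of 31 cytokines, receptors and transcription factors known to act on *Sprr* genes, 26 were tested, and *Il4*, *Il13* and *Il22* were not analysed here. None passed in limma or in limma-voom, and 6 had an unadjusted p below 0.05, against 13.3% of all genes tested. The median log2FC was -0.03. The ETS factors *Ehf* and *Elf3* were abundant, with 621 ± 66.5 and 636 ± 75.1 CPM for *Ehf* and 442 ± 43.2 and 428 ± 31.3 CPM for *Elf3* in control and treated mice. *Ets1* of the same family was at 8.29 ± 0.458 and 5.43 ± 0.726 CPM, with no overlap, a log2FC of -0.61 and a limma adjusted p of 0.133. *Fos*, a subunit of AP-1, was at 418 ± 24.6 CPM in controls against 324 ± 11.7 CPM after GSK503 (SD, n = 3 each), a log2FC of -0.37 with a limma adjusted p of 0.0741. *Fos* did not overlap between the groups, and it passed, with an adjusted p of 0.0231, when libraries were scaled by size alone, which moved the median log2FC of all genes to -0.12. *Jund*, another AP-1 subunit, stood on the other side, at 113 ± 7.26 and 143 ± 4.16 CPM with no overlap, a log2FC of 0.34 and a limma adjusted p of 0.0806. In all, 2 of the 26 genes lay above and 6 below all controls in every treated mouse, where 9.84% and 9.22% of all genes tested did so.

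Among 21 genes that microbes or type 2 immunity induce in the mucosa, as they do *Sprr2a*, 4 rose and 1 fell in limma's fit. Of all genes tested, 0.498% and 0.144% did so, and the median log2FC of the list was -0.03. The list was chosen with earlier results of these data known, so nothing is read from its number of calls. The p-values of its genes are given as a description. *Retnlb*, the goblet cell protein RELMβ, read 218, 125 and 116 CPM in control animals against 564, 586 and 484 CPM after GSK503, with a log2FC of 1.88, a standard error of 0.21 and an adjusted p of 0.00423 in limma. *Ang4*, an antimicrobial ribonuclease, read 424, 59.2 and 118 CPM against 1098, 1592 and 1750 CPM, a log2FC of 3.34 (limma adjusted p = 0.0345). *Itln1*, the lectin intelectin, rose by a log2FC of 2.95 at an adjusted p of 0.0415 in limma, and *Clca1*, a secreted goblet cell protein, by 2.38 at 0.0294. *Lcn2*, the siderophore-binding lipocalin, fell from 2.59 ± 0.190 to 0.640 ± 0.0866 CPM (SD, n = 3 each), a log2FC of -1.87 (limma adjusted p = 0.0157). Several of these are goblet cell products, and their part in the *Sprr2a* values was not tested.

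Leaving out 1 mouse ended each of these calls other than that of *Retnlb*, which kept an adjusted p of at most 0.0310 with any mouse left out. In limma, *Ang4* had an adjusted p of 0.0679 without control mouse 2, 0.117 without control mouse 3, 0.0636, 0.175 and 0.0622 without GSK503-treated mice 1, 2 and 3. *Itln1* had an adjusted p of 0.109 and 0.124 without control mice 2 and 3 and of 0.0609, 0.198 and 0.0680 without treated mice 1, 2 and 3. For *Clca1* the limma adjusted p was 0.109 and 0.0897 without control mice 2 and 3 and 0.167 without treated mouse 2. For *Lcn2* it was 0.0526, 0.0735 and 0.0647 without control mice 1, 2 and 3 and 0.0562 and 0.0928 without treated mice 1 and 2. The called genes also had an adjusted p between 0.171 and 0.251 without the intensity trend, other than *Lcn2* at 0.0144. Conversely, *Reg3g*, a microbe-induced lectin that did not pass with all mice (104, 600 and 411 CPM in control animals against 132, 198 and 198 CPM after GSK503), passed without control mouse 1. *Fcgbp*, a mucus protein, passed with limma-voom, and *Nos2*, the inducible nitric oxide synthase, with libraries scaled by size alone.

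Genes of the regenerative, fetal-like state of injured gut epithelium gave no call. Of 13 tested, none passed in limma or in limma-voom, and 3 had an unadjusted p below 0.05, against 13.3% of all genes tested. The median log2FC was 0.17. *Ly6a*, the stem cell antigen Sca-1, was at 245 ± 18.2 CPM in controls against 244 ± 44.4 CPM after GSK503, *Anxa1* (annexin A1) at 83.8 ± 9.51 and 86.7 ± 13.3 CPM and *Krt7* at 134 ± 17.4 and 166 ± 16.2 CPM (SD, n = 3 each). *Ccn2*, a YAP target, passed only when GSK503-treated mouse 3 was left out, with 0.518, 0.696 and 0.864 CPM in control animals against 0.0339, 0 and 1.17 CPM after GSK503.

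**Figure D5:**
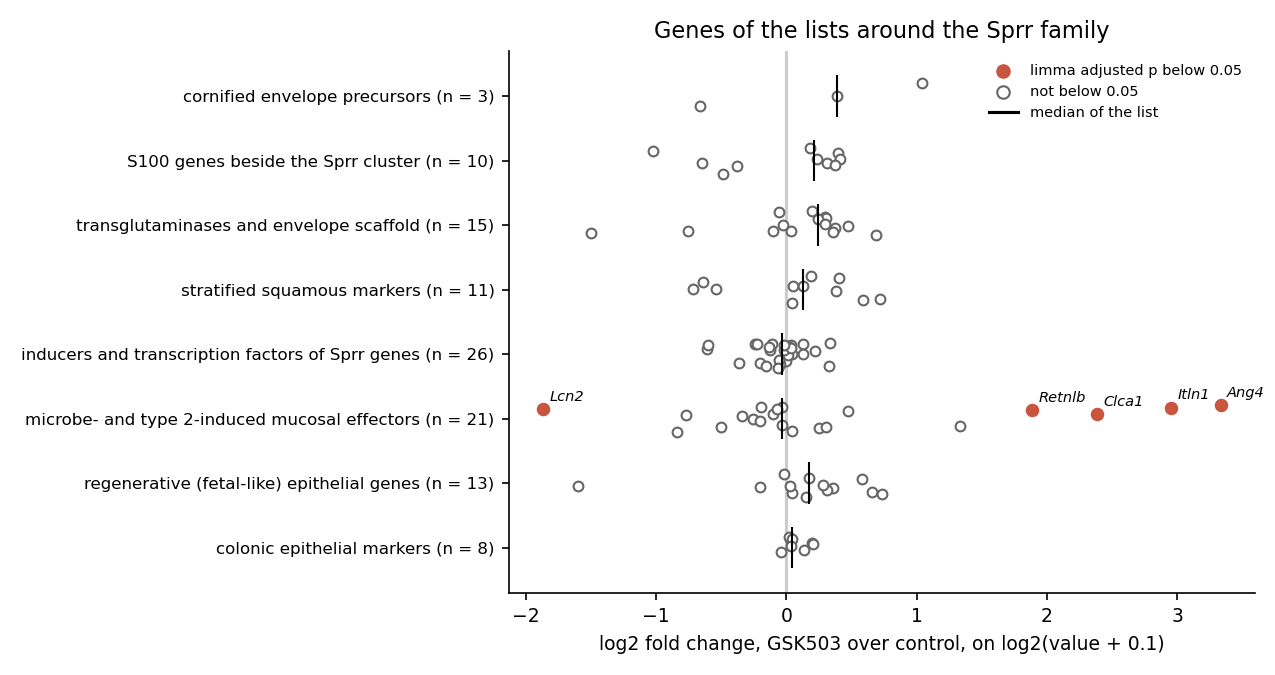
The log2 fold change of each tested gene, GSK503 over control on the log2(value + 0.1) scale, by list, with the median of each list as a line and genes with a limma adjusted p below 0.05 in red. Red points are in the list of microbe- and type 2-induced genes, *Retnlb*, *Clca1*, *Itln1* and *Ang4* to the right and *Lcn2* to the left.

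Over the 6 libraries, the genes whose log2 values followed summed *Sprr2a* most closely were *Nt5c3b*, *Nccrp1*, *Josd2*, *Ccdc126* and *Hpn*, with a Pearson r of 0.998, 0.992, 0.990, 0.990 and 0.988. In all, 65 of the 16667 genes compared had an r above 0.95. With 6 points in 2 groups, these values are a description only. *Nccrp1* was at 0.260 ± 0.192 CPM in controls and 1.78 ± 0.193 CPM after GSK503 (SD, n = 3 each), and its ratio of means, 6.84, was the largest of the 5. *Hpn*, the membrane protease hepsin, was at 2.53 ± 0.477 and 4.21 ± 0.306 CPM (SD, n = 3 mice each). Within the family, r with the sum was 0.9999 for *Sprr2a2*, 0.925 for *Sprr2a3* and 0.733 for *Sprr2a1*, which are parts of that sum. It was 0.342 for *Sprr1a*, which is not.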

How the data were processed

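Per the study's methods and the labels, the authors used STAR to align paired-end reads of 76 bases to GRCm39, took gene-level estimated counts from RSEM and scaled these by edgeR's TMM method. The deposited signal is an estimated count scaled to the TMM-adjusted library size (written CPM), and column totals run from 975566 to 1076042. From the smallest step of each library, between 75.9% and 78.6% of its values were whole numbers of counts (tolerance 0.02). The 8 members and the lists of other genes were chosen with earlier results of these data known.

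limma (version 3.58.1, R 4.3.3) was fitted with an intensity trend to log2(value + 0.1) of the 16670 genes with at least 0.1 CPM in at least 3 libraries, with Benjamini-Hochberg adjustment over all of them. Each log2FC understates the change of low genes. The fit was tested on simulated data. The *Sprr2a* rows were added before the log. Genes were named by rule, as every listed *Sprr* gene, up to 6 called genes of a list by p or its most abundant genes up to 3, and the 5 genes most correlated with summed *Sprr2a*. *Evpl*, *Tgm1*, *Ets1*, *Jund*, *Trp63*, *Reg3g*, *Fcgbp*, *Nos2*, *Ccn2*, *S100a7a*, *S100a11*, *S100a13*, *S100a14* and *S100a16* were named after their values were seen. Replicate numbers were not used to pair the mice in the main fit. Each library was taken as 1 mouse. Sequences were read from GRCm39 at coordinates of the GENCODE release provided here. The annotation release the authors used is not given in the sources used here. A further allele that all 6 mice shared is not reported here.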

Additional observations from a re-analysis of the deposited data

How the results depend on the processing

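The log2FC of summed *Sprr2a* was 0.78, ran from 0.63 to 0.92 when single mice were left out and was 0.66 with libraries scaled by size alone. Read from separate rows instead, it was 0.22 for *Sprr2a1* and 1.25 for *Sprr2a3*. Of the listed *Sprr* genes, 1 was called in limma's fit, 2 with limma-voom on the recovered counts and 0 without the intensity trend. Leaving out single mice gave 1 to 2, the 2 without control mouse 3. Among all genes, limma-voom called 82 higher and 22 lower, and the fit without control mouse 3 called 40 and 9. Nothing is read from the counts of *Sprr* genes, as they were selected on this contrast. Of 99 genes tested in the other lists, colonic markers and sex-linked genes aside, 5 were called. The same fit called 0.498% of all genes higher and 0.144% lower. These lists were chosen with earlier results of these data known, so nothing is read from this count. The count was 1 without the trend, 7 with libraries scaled by size alone and 1 to 5 when single mice were left out. The cause of these differences was not tested. The call of *Clca1* was also lost with a pseudocount of 1 (limma adjusted p = 0.0541) and that of *Itln1* with 0.01 (limma adjusted p = 0.0503). Scaling by size alone gave 83 genes higher and 178 lower among all genes, against 83 and 24, and the fit without the trend gave 9 and 7.

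Replicate numbers are shared by the groups, but same-numbered mice did not deviate together (Pearson r of deviations across genes 0.03, -0.13 and -0.12). With the replicate block, the log2FC of summed *Sprr2a* was 0.78, and 23 genes were higher and 10 lower among all genes. That fit called 1 listed *Sprr* gene and, sex-linked genes aside, 1 gene of the other lists, *Retnlb*. Depth set no limit on the *Sprr2a* values, whereas *Sprr2b* rested on at most 15 counts.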
